A study of Mus musculus with 10 samples.

Results

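The chemokine genes Cxcl9, Cxcl10, Cxcl11 and Cxcl16 were taken by name, 4 of the 13809 genes in the table, and their levels were compared over 4 groups of mouse bone marrow macrophages in 10 RNA sequencing libraries. All cells came from C57BL/6 mice aged 12 weeks. LPS-treated resident macrophages and untreated resident macrophages (3 libraries each) were marrow cells held back by a magnetic column without any staining, and the labels give them as CD163+. LPS-treated bone marrow derived macrophages (BMDM) and untreated BMDM (2 libraries each) were grown from the cells that ran through the column, and the labels give them as CD163-. The culture medium of the BMDM held 20% supernatant of L929 cells, which secrete a macrophage growth factor; its length is 6 days in the growth protocol but 7 days in the titles. LPS (lipopolysaccharide), a bacterial cell wall component, was given at 1 µg/ml for 4 h, and the labels give the untreated cells 4 h as well. The resident cells are thus defined by magnetic retention and not by a sort on a macrophage marker. Nothing in the labels says how many mice gave a library or whether replicates came from separate mice. The p-values below thus measure the spread between these libraries, part or all of which may be technical. In each resident group only replicate 1 held transcripts of Y-linked genes, so its cells differed in source from those of replicates 2 and 3.

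CXCL9, CXCL10 and CXCL11 are secreted chemokines that attract activated T cells and NK cells through the receptor CXCR3, and their genes are classical targets of interferon. CXCL16 is made as a membrane protein whose chemokine domain sits on a stalk. It binds CXCR6 on T and NKT cells, takes up oxidized lipids, and is shed from the surface by the protease ADAM10. In macrophages LPS acts through TLR4, and one branch of the signal leads through IRF3 to interferon beta, which acts back on the cells through its receptor and factors such as STAT2 and IRF9.

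In the mm10 genome, called GRCm38 in the GENCODE annotation, Cxcl9 (chr5:92321347-92328079), Cxcl10 (chr5:92346638-92348889) and Cxcl11 (chr5:92359544-92365485) lie side by side on the minus strand within 44139 bases. Cxcl16 lies apart at chr11:70453983-70459984, also on the minus strand. RefSeq promoter entries (GRCm38.p6) matched 2 of the 4 genes, Cxcl10 and Cxcl9. The 250 bases before each start are shown because both genes moved together in these libraries and both are textbook targets of interferon regulatory factors and NF-kappa B. Capitals mark matches to the motifs searched, and both sequences read 5′ to 3′ on the minus strand, at chr5:92348890-92349139 for Cxcl10 and chr5:92328080-92328329 for Cxcl9.
Cxcl10: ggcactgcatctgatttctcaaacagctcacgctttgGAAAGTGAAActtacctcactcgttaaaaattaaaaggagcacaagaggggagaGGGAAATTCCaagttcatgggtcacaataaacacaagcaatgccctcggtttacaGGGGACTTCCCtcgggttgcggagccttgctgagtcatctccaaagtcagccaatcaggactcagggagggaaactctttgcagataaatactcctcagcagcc
Cxcl9: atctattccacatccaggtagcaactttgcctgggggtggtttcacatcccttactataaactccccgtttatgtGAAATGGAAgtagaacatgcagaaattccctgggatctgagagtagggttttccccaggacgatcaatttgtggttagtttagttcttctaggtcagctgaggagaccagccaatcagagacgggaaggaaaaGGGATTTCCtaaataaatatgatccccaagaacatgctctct
The motifs were searched on both strands. GAAANNGAA, a core bound by interferon regulatory factors, is in 7.13% of 32851 promoter entries of this length and had 1 match in each gene. The same letters followed by a further A, the core of the interferon stimulated response element, are in 2.98% of entries and had 1 match in Cxcl10, at the same place, and 0 in Cxcl9. The short kappa B form GGGANTTCC is in 1.43% of entries and also had 1 match in each. The degenerate kappa B consensus is in 7.25% of entries and had 4 matches in Cxcl10, 3 of which overlap each other and the short form, and 0 in Cxcl9. TTCNNNGAA, the gamma activated site, is in 7.02% of entries and had no match in these windows of either gene. These are matches of letters and not measured binding.

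**Figure D1:**
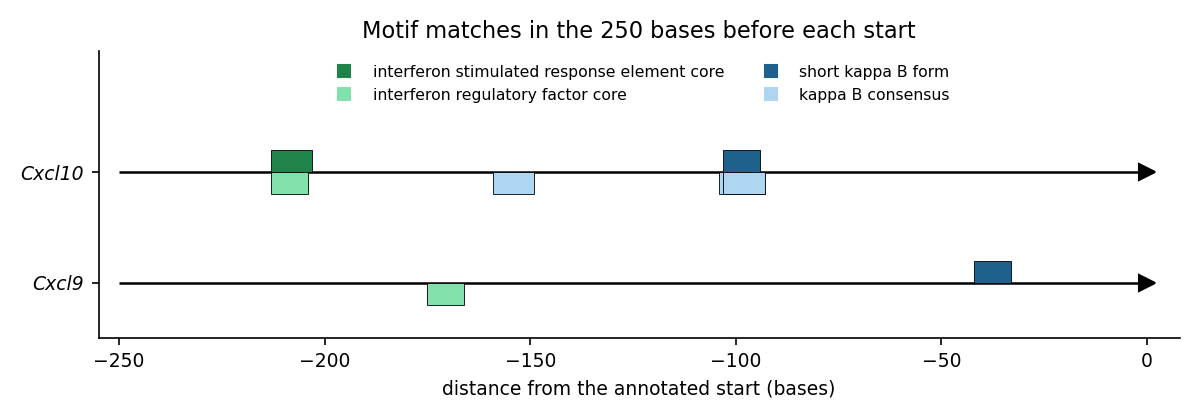
Positions of the motif matches in the 250 bases before the annotated start of Cxcl10 (top) and Cxcl9 (bottom). The x axis is the distance from the start in bases, each box is 1 match, and overlapping boxes share bases. Cxcl10 holds matches from 213 to 204, from 159 to 150 and from 104 to 94 bases before its start, and Cxcl9 from 175 to 167 and from 42 to 34.

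Cxcl11 needs a remark on what its reads stand for. C57BL/6 mice are known to carry a frameshift in this gene, and GENCODE lists it as a polymorphic pseudogene. The annotation holds a model (Cxcl11-202) that keeps all genomic bases after the start codon and a model (Cxcl11-201) that skips 2 of them. The stretches are shown to let the shift be seen. Capitals mark the 2 bases at chr5:92363177-92363178 on the minus strand, which begin at position 37 counted from the A of the start codon.
Cxcl11-202: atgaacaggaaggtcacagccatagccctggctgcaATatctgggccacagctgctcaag
Cxcl11-201: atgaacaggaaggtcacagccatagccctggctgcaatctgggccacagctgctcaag
With the 2 bases kept, the reading frame stopped after 36 codons, and with them skipped it ran for 99 codons. The values below therefore give the transcript and say nothing on protein.

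Assigned to genes, as recovered from the steps between the values, were 27.1 to 37.7 M reads per library. The value shown throughout is the deposited normalized value, a read count divided by 1 factor per library, in which 1 read is worth 0.892 to 1.35. Cd163, the marker in the labels, stood at 4131 to 6476 in LPS-treated resident and 5282 to 10740 in untreated resident libraries, against 14.4 to 14.9 in LPS-treated BMDM and 41.9 to 53.9 in untreated BMDM. The macrophage markers Adgre1 and Csf1r were read in all 10 libraries, Adgre1 at 10457 to 18056 in the resident groups and at 25467 to 37213 in BMDM. Of 12 macrophage markers, 7 were called higher and 5 lower in untreated resident cells than in untreated BMDM. Of all genes called there, 54.6% were higher. The markers went both ways by wide margins. Csf1r stood at 14637 to 20844 in untreated resident libraries, against 59633 and 61248 in untreated BMDM. Spic stood at 15989 to 23425 in the former, against 50.3 and 51.0 in the latter. With LPS 6 of the 12 were higher and 5 lower in resident cells, against 36.7% and 34.5% of all genes. All 13 neutrophil markers looked at were called higher in resident cells under both treatments, against 39.2% of all genes without LPS and 36.7% with LPS. The summed value of these markers was 335847 to 376340 in LPS-treated resident and 216442 to 388456 in untreated resident libraries, against 2094 to 2189 in LPS-treated BMDM and 1892 to 1971 in untreated BMDM. Markers of B cells, erythroid cells and platelets were also higher in the resident fraction, so that fraction holds RNA of other marrow cells, whose part in the differences between origins was not tested. In bulk RNA, fewer cells of a type and less RNA per cell cannot be told apart. Y-linked transcripts (Ddx3y, Eif2s3y, Kdm5d and Uty) were read in replicate 1 of both resident groups and stood at the floor of 1 in the other 8 libraries, and values without these 2 libraries are given where they change a call.

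Untreated resident macrophages held all 4 transcripts at high levels, untreated BMDM held Cxcl9 and Cxcl11 at a few reads, and LPS brought all 4 to a high level in BMDM while Cxcl10 alone passed the test in resident cells. For each gene the group means ran from LPS-treated BMDM down through LPS-treated resident and untreated resident cells to untreated BMDM. Tests below are limma moderated tests on log2(value + 1) over 13755 genes. Calls are made where the adjusted p is under 0.05, and each difference is given with its standard error. The spread in these tests is pooled per gene over all 4 groups, so a p-value for resident cells also rests on the BMDM spread. For Cxcl16 the standard deviation was 6037 in untreated and 4313 in LPS-treated resident libraries, against 284.7 in untreated and 85.63 in LPS-treated BMDM.

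Cxcl9 stood at 3431, 3401 and 2608 in the LPS-treated resident libraries and at 2506, 3062 and 1601 in the untreated resident libraries. It stood at 5854 and 6129 in LPS-treated BMDM and at 5.47 and 4.57 in untreated BMDM, which are 6 and 5 reads. The resident groups overlap, both lie between the BMDM groups, and untreated BMDM stand alone near the limit of detection.

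Cxcl10 was the most abundant of the 4. It reached 124534, 134516 and 116310 in LPS-treated resident libraries and 82778, 92780 and 61338 in untreated resident libraries. It reached 289212 and 284869 in LPS-treated BMDM, against 648 and 577 in untreated BMDM. No groups overlap: every LPS-treated resident library is above every untreated one, and LPS-treated BMDM are above both. In LPS-treated BMDM this 1 gene took 0.746% and 0.738% of all values in a library, against 0.00262% and 0.00222% in untreated BMDM.

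Cxcl11 stood at 4358, 5859 and 4429 in LPS-treated resident libraries and at 3011, 4259 and 2357 in untreated resident libraries. It stood at 6236 and 6469 in LPS-treated BMDM, and at 1.82 and 5.48 in untreated BMDM, which are 2 and 6 reads. The resident groups lie close without overlapping, since the lowest LPS-treated library (4358) is just above the highest untreated one (4259), and the LPS-treated BMDM are above every resident library.

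Cxcl16 had the narrowest range. It stood at 29786, 21982 and 22700 in LPS-treated resident libraries and at 27249, 19322 and 15399 in untreated resident libraries. It stood at 27493 and 27372 in LPS-treated BMDM, against 7479 and 7882 in untreated BMDM. The resident groups overlap, the LPS-treated BMDM lie inside the range of the LPS-treated resident libraries, and untreated BMDM are lowest but far from zero.

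**Figure D2:**
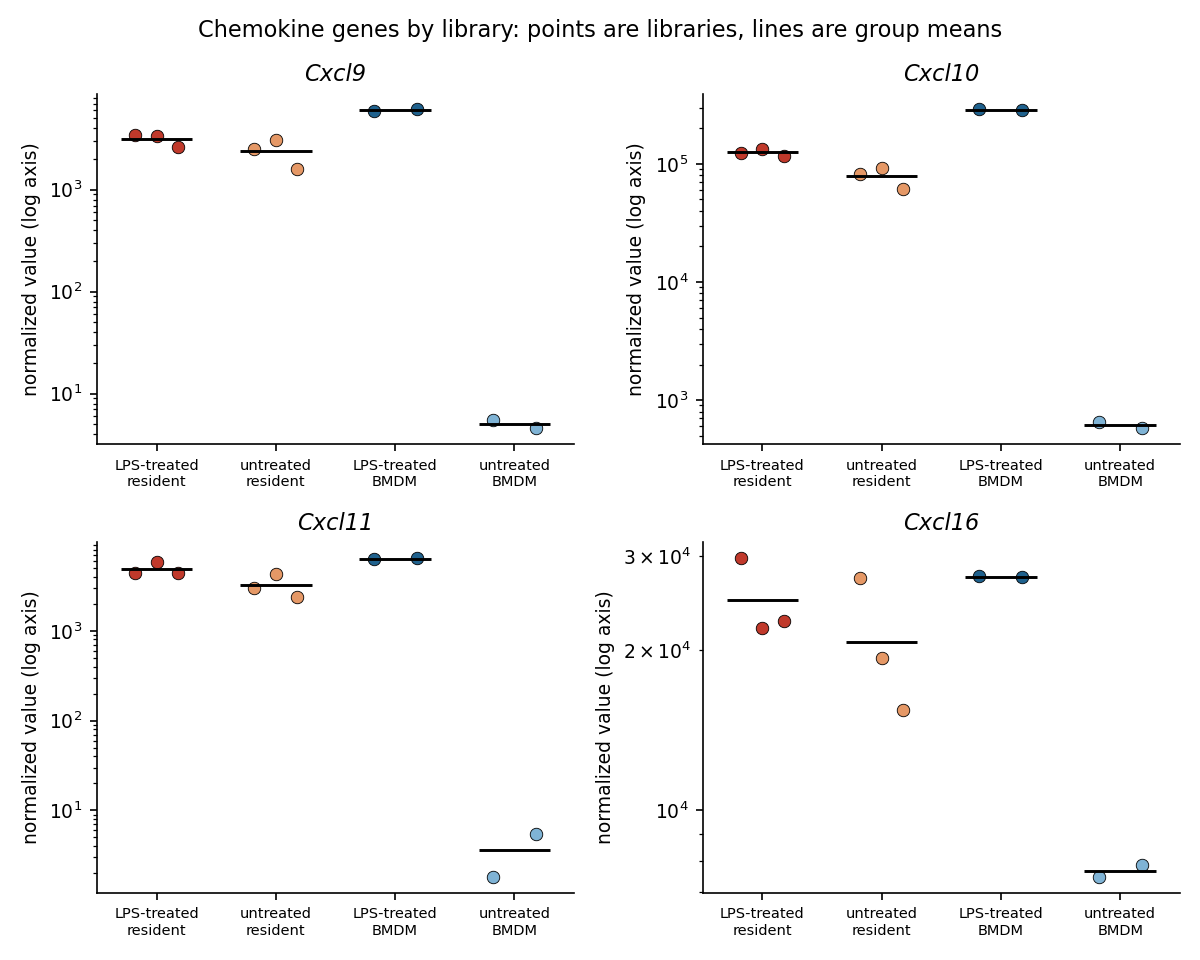
Normalized values of the 4 genes on log axes, 1 panel per gene. Each point is a library and each line a group mean, for LPS-treated resident, untreated resident, LPS-treated BMDM and untreated BMDM from left to right. Untreated BMDM lie lowest in each panel, at 4.57 to 5.47 for Cxcl9 and at 7479 to 7882 for Cxcl16.

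The first question is how each origin answered LPS. In resident macrophages 1 of the 4 genes was called higher, against a background of 7.36% of all genes tested (5.57% were called lower). In 2 of the 4, Cxcl10 and Cxcl11, all LPS-treated libraries were above all untreated ones, against 13.8% of genes. Cxcl10 was higher by 0.68 ± 0.15 on the log2 scale, 1.58 times by the means (adjusted p = 0.0186, higher in each of 3 LPS-treated libraries than in any untreated one). This call depends on settings: the change was 0.51 with an adjusted p of 0.0671 after quantile normalization, 0.63 with 0.0689 without LPS-treated resident replicate 2, and 0.68 with 0.113 when the 2 resident groups were fitted alone. Leaving out both libraries that hold Y-linked transcripts gave 0.73 and an adjusted p of 0.0177.

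The remaining 3 genes did not pass the test in resident cells. Cxcl9 differed by 0.44 ± 0.21 (95% interval -0.02 to 0.90, adjusted p = 0.204) and Cxcl11 by 0.63 ± 0.29 (-0.01 to 1.28, adjusted p = 0.187). For both, as for Cxcl16 below, the interval leaves room for a change as large as that of Cxcl10. For Cxcl16 the difference was 0.29 ± 0.19 (-0.13 to 0.71, adjusted p = 0.371). It was 0.51 with an adjusted p of 0.036 without untreated resident replicate 1, and 0.37 with 0.0298 without both libraries with Y-linked transcripts. Replicate 1 had the highest Cxcl16 in both resident groups, and it also had the highest sum of 12 macrophage markers, at 214165 against 170001 and 183430 in LPS-treated resident cells and at 278272 against 191143 and 191280 in untreated ones. The part of macrophage content in the Cxcl16 values was not tested.

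In BMDM all 4 genes were called higher after LPS, against a background of 28.3% of genes called higher and 29.5% called lower. Their libraries did not overlap, as for 39.7% of genes in that direction. Cxcl11 and Cxcl9 showed log2 differences of 10.54 ± 0.35 (adjusted p = 2.83e-09) and 9.96 ± 0.25 (adjusted p = 5.16e-10). Since their untreated values rest on 8 and 11 reads over both libraries, their ratios are better read with counting intervals, which cover counting error only. For Cxcl11 the ratio was 1740 with a 95% interval of 881 to 4020, and for Cxcl9 it was 1190 with an interval of 665 to 2380. Cxcl10, with 711 and 631 reads in untreated BMDM, was higher by 8.87 ± 0.19 (adjusted p = 1.88e-10), 469 times by the means. Cxcl16 was higher by 1.84 ± 0.23 (adjusted p = 6.56e-05), 3.57 times by the means. All 4 calls held in each of the 23 alternatives run.

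The responses themselves differed between the origins for all 4 genes (resident minus BMDM; background 22.8% of genes called in that direction). The difference was -9.90 ± 0.46 for Cxcl11 (adjusted p = 8.59e-08), -9.53 ± 0.33 for Cxcl9 (adjusted p = 1.54e-08) and -8.19 ± 0.24 for Cxcl10 (adjusted p = 6.82e-09). For Cxcl16 it was -1.55 ± 0.30 (adjusted p = 0.00211). The 3 CXCR3 ligands thus had log2 responses smaller by 8 or more in resident cells, and Cxcl16 one smaller by less than 2.

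**Figure D3:**
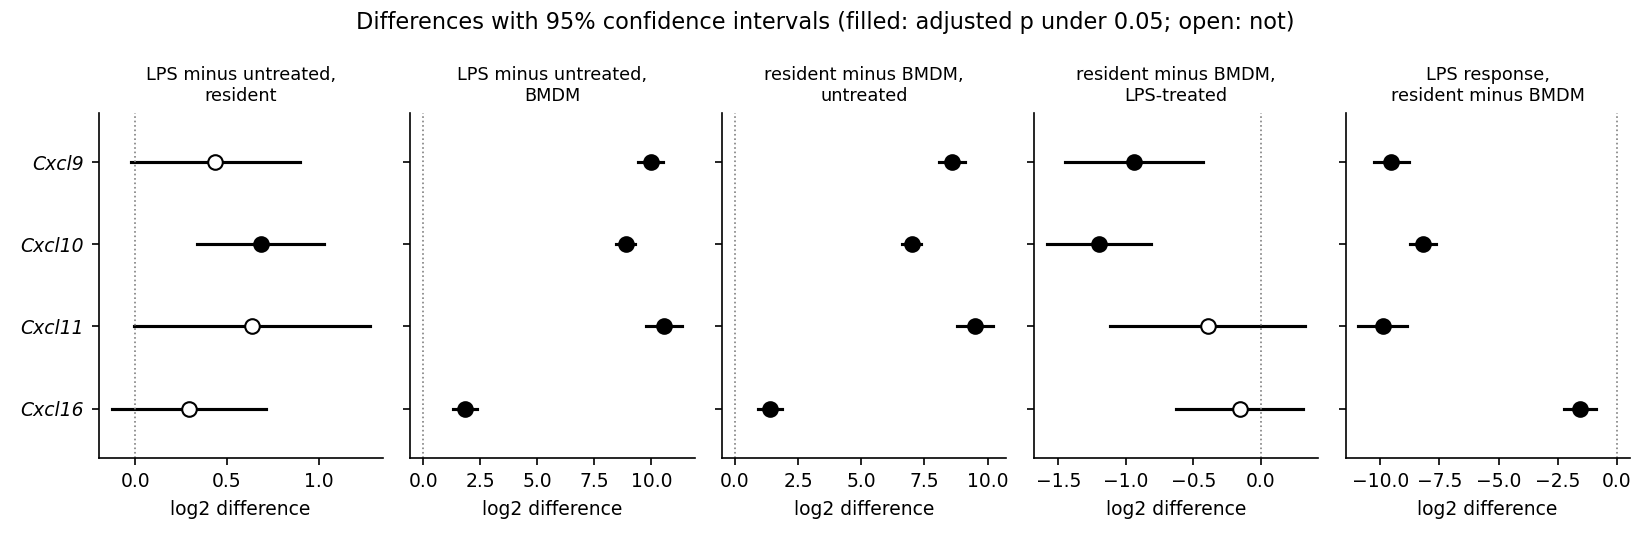
Log2 differences of the 4 genes in the 5 comparisons, with 95% confidence intervals as bars. Filled points passed an adjusted p of 0.05 and open points did not, and the x axes differ between panels. In the first panel only Cxcl10, at 0.68, is filled; in the second, all 4 are, from 1.84 to 10.54.

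The second question is how the origins compared under the same treatment. Without LPS, all 4 genes were called higher in resident cells than in BMDM, against a background of 39.2% of genes called higher. Their libraries did not overlap, as for 44.4% of genes in that direction. Cxcl11 was higher by 9.51 ± 0.32 (adjusted p = 3.11e-09), with a ratio of 878 and a counting interval of 445 to 2030. Cxcl9 was higher by 8.59 ± 0.23 (adjusted p = 8.51e-10), with a ratio of 477 and an interval of 266 to 955. Cxcl10 was higher by 6.99 ± 0.17 (adjusted p = 5.7e-10), 129 times by the means. Cxcl16 was higher by 1.39 ± 0.21 (adjusted p = 0.000186), 2.69 times. These calls also held in each of 23 alternatives.

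With LPS, 2 of the 4 were called lower in resident cells than in BMDM, against a background of 34.5% of genes called lower and 36.7% called higher. For 3 of the 4 every resident library was below both BMDM libraries, against 40.2% of genes. Cxcl10 was lower, by -1.20 ± 0.17 (adjusted p = 0.000127), and its resident mean was 0.436 of the BMDM mean. Cxcl9 was also lower, by -0.94 ± 0.23 (adjusted p = 0.00412), at 0.525 of the BMDM mean. For Cxcl11 the difference was -0.39 ± 0.32 (95% interval -1.11 to 0.33, adjusted p = 0.294), although its 3 resident libraries all lay below both BMDM libraries. For Cxcl16 it was -0.16 ± 0.21 (-0.63 to 0.31, adjusted p = 0.518), with a positive sign under quantile normalization and equal library totals. Fitted on the LPS-treated groups alone, the same Cxcl11 difference had an adjusted p of 0.0304, and without the libraries with Y-linked transcripts the Cxcl16 difference was -0.30 with an adjusted p of 0.0224. In the order of group means, then, the main fit called the step from LPS-treated BMDM to LPS-treated resident cells for Cxcl9 and Cxcl10. It called the step from LPS-treated to untreated resident cells for Cxcl10, a call lost in 3 of 23 alternatives. The step from untreated resident cells to untreated BMDM was called for all 4. A gene without a call is not thereby shown to differ from a gene with one.

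Levels can be set between the genes once divided by transcript length (the lowest-numbered GENCODE model of each gene, 2889 bases for Cxcl9, 1094 for Cxcl10, 1581 for Cxcl11 and 2699 for Cxcl16). Within a library, the level of Cxcl10 per kilobase was 10.3 to 15.1 times that of Cxcl16 in LPS-treated resident libraries and 7.49 to 11.8 times in untreated ones. The same ratio was 25.7 to 26.0 in LPS-treated BMDM and 0.181 to 0.214 in untreated BMDM. Cxcl16 was thus the most abundant of the 4 per length in untreated BMDM and Cxcl10 in the other groups. Against Cxcl9, Cxcl10 was 95.8 to 118 times as abundant per kilobase in LPS-treated resident libraries and 80.0 to 101 times in untreated ones, and 123 to 130 times in LPS-treated BMDM. The 2 resident ranges overlap, and in untreated BMDM the ratio was 313 to 333, on 6 and 5 reads of Cxcl9. With the length of all exons merged in place of these models, the ratio of Cxcl10 to Cxcl9 in LPS-treated resident libraries was 48.6 to 59.7.

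In untreated resident cells replicate 3 was lowest for all 4 genes and replicate 2 highest for Cxcl9, Cxcl10 and Cxcl11. In LPS-treated resident cells no replicate was lowest or highest for all 4. Replicate 3 of the untreated group had the highest neutrophil marker sum, 388456 against 216442 and 321336 in replicates 1 and 2, and the part of this in the chemokine values was not tested.

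Neighbouring genes were checked because reads of overlapping genes cannot be told apart where the strand used in counting is not given. Art3, on the opposite strand, spans Cxcl10 and Cxcl11 and shares 133 exon bases with Cxcl10. Its values were 24.9 to 42.9 in LPS-treated resident and 20.0 to 30.4 in untreated resident libraries, against 13.5 to 15.4 in LPS-treated BMDM and the floor of 1 in untreated BMDM, so it is a very small number beside Cxcl10. Zmynd15 overlaps Cxcl16 by 552 exon bases and stood at 249 to 328 in LPS-treated resident and 191 to 203 in untreated resident libraries, against 1501 to 1714 in LPS-treated BMDM and 429 to 494 in untreated BMDM. The pseudogene Gm2673, on the opposite strand, shares 1582 exon bases with Cxcl11. It is not in the table, so its part in the Cxcl11 values could not be tested.

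The receptors were read at low levels. Cxcr3, the receptor of CXCL9, CXCL10 and CXCL11, stood at 23.1, 12.9 and 22.6 in LPS-treated resident libraries and at 40.1, 40.8 and 60.01 in untreated resident libraries. In BMDM it stood at 59.6 and 97.5 with LPS and at 44.7 and 40.2 without. It fell by 1.25 ± 0.30 after LPS in resident cells (adjusted p = 0.0231), while in BMDM the difference was 0.83 ± 0.37 (adjusted p = 0.0748), and the responses differed by -2.08 ± 0.47 (adjusted p = 0.00538). The groups do not overlap in resident cells, and the direction there is opposite to that of Cxcl10. The resident call was lost without LPS-treated resident replicate 2, without untreated resident replicate 3 and with the 2 resident groups fitted alone (adjusted p up to 0.0782).

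Cxcr6, the receptor of CXCL16, stood at 57.3, 42.9 and 44.2 in LPS-treated resident libraries and at 42.8, 47.5 and 52.4 in untreated resident libraries. In BMDM it stood at 14.4 and 16.3 with LPS, against 3.65 and 3.66 without. The resident groups overlap and differed by 0.01 ± 0.23 (adjusted p = 0.989). In BMDM Cxcr6 was higher after LPS by 1.81 ± 0.28 (adjusted p = 0.000271). The T cell marker Cd3e was at 8.83 to 14.8 in LPS-treated resident and 8.92 to 21.9 in untreated resident libraries, against 1 to 4.06 in LPS-treated BMDM and 1 to 1.83 in untreated BMDM. Not all T and NK markers went this way. Of 12, Cxcr3 and Cxcr6 among them, 9 were called higher and 2 (Lck and Cxcr3) lower in resident cells with LPS. The shares over all genes were 36.7% and 34.5%. Without LPS 10 were higher, against 39.2% of all genes, and 1, Klrb1c, was lower. The part of T or NK cells in the receptor values was not tested.

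Of 11 genes listed as receptors and processing enzymes, 10 are in the table. In resident cells 1 was called higher after LPS and 2 lower (median log2 change -0.04, against 0.002 over all genes), and over the 23 alternatives the number called lower ran from 0 to 3. In BMDM 5 were higher and 1 lower (median 0.85, against -0.042 over all genes). Over all genes 7.36% were called higher and 5.57% lower in resident cells, and 28.3% and 29.5% in BMDM. Adam10, the main sheddase of CXCL16, stood at 3210 to 3870 in LPS-treated resident and 3456 to 4010 in untreated resident libraries, against 3433 and 3363 in LPS-treated BMDM and 5684 and 5846 in untreated BMDM. It fell by 0.76 ± 0.10 after LPS in BMDM (adjusted p = 0.0001), opposite to Cxcl16. Adam17, which sheds CXCL16 and TNF, was higher by 1.36 ± 0.09 there (adjusted p = 3.13e-07). Neither passed the test in resident cells (Adam10 -0.10 ± 0.08, adjusted p = 0.53; Adam17 0.08 ± 0.07, adjusted p = 0.532).

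Among the other enzymes, Dpp4, the peptidase that trims CXCR3 ligands, stood at 524 to 886 in LPS-treated resident and 389 to 753 in untreated resident libraries, against 22.6 and 52.8 in LPS-treated BMDM and 6.38 and 11.9 in untreated BMDM. It differed by 0.44 ± 0.37 after LPS in resident cells (adjusted p = 0.512) and was higher by 1.87 ± 0.45 in BMDM (adjusted p = 0.00485), a call lost without LPS-treated BMDM replicate 2 and with voom (adjusted p up to 0.243). Sdc4, a heparan sulfate proteoglycan that binds chemokines, was higher after LPS in both origins, by 1.06 ± 0.17 in resident cells (adjusted p = 0.00382) and by 5.45 ± 0.21 in BMDM (adjusted p = 6.73e-09). Mmp9, a gelatinase that can cut CXC chemokines and is also a neutrophil gene, fell by 0.57 ± 0.15 in resident cells (adjusted p = 0.035) and was higher by 0.87 ± 0.18 in BMDM (adjusted p = 0.00228). The Mmp9 call was lost in 8 of 23 alternatives in resident cells, among them without LPS-treated resident replicate 2 or 3, untreated resident replicate 3 or either untreated BMDM library (adjusted p up to 0.12), and with equal totals in BMDM (0.29). Mmp8, a neutrophil collagenase, passed in neither. The decoy receptors Ackr1 and Ackr2 did not pass after LPS in either origin, and both were within a few reads of the floor in BMDM.

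Among the genes upstream of the chemokines, 4 of 9 interferon, receptor and kinase genes and 9 of 18 genes of the inducing pathway were called higher after LPS in resident cells, and 8 of 9 and 15 of 18 in BMDM. The shares called higher over all genes were 7.36% in resident cells and 28.3% in BMDM. Ifnb1, the gene of interferon beta, stood at 372, 492 and 518 in LPS-treated resident libraries and at 99.9, 111 and 73.3 in untreated resident libraries. It stood at 246 and 318 in LPS-treated BMDM and at the floor in both untreated BMDM libraries. The resident fraction therefore held Ifnb1 transcript without LPS, and the part of other marrow cells in it was not tested. With LPS the difference of resident cells from BMDM was 0.70 ± 0.24 (adjusted p = 0.0216), a call that was lost in 4 of 23 alternatives: with quantile normalization and without LPS-treated resident replicate 2, LPS-treated resident replicate 3 or LPS-treated BMDM replicate 1 (adjusted p up to 0.173). After LPS it was higher by 2.28 ± 0.21 in resident cells (adjusted p = 0.000242), and in BMDM at least 103-fold against 3 reads per library (adjusted p = 4.98e-09).

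Ifng, the gene of interferon gamma, which T and NK cells mainly make, stood at 106, 164 and 150 in LPS-treated resident libraries and at 15.2, 55.1 and 20.0 in untreated resident libraries. In BMDM it was at 8.23 and 6.77 with LPS and at the floor without. It was higher after LPS in resident cells by 2.38 ± 0.43 (adjusted p = 0.00647), and the resident groups do not overlap. The sum of 12 T and NK markers, Cxcr3 among them, was 2742 to 3115 in LPS-treated resident and 3025 to 3927 in untreated resident libraries, against 1322 to 1500 in LPS-treated BMDM and 822 to 900 in untreated BMDM, and its part in the Ifng values was not tested. Cd4 alone made up most of this sum, with 1925 to 2427 in LPS-treated resident and 2314 to 3435 in untreated resident libraries, against 627 to 719 in LPS-treated BMDM and 672 to 747 in untreated BMDM.

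Of 14 interferon, interferon receptor and Janus kinase genes listed, 9 are in the table. In resident cells 4 were higher after LPS and 1 lower, and in BMDM 8 were higher and 1 lower (median log2 change 0.25 and 1.38). All genes tested gave 7.36% higher and 5.57% lower in resident cells, and 28.3% and 29.5% in BMDM. The count of 4 became 7 without untreated resident replicate 1 and also without both libraries with Y-linked transcripts. Ifngr1, a chain of the interferon gamma receptor, was the lower gene in both, by -0.33 ± 0.06 in resident cells (adjusted p = 0.00604) and by -0.98 ± 0.07 in BMDM (adjusted p = 9.03e-07). Jak2, its kinase, was higher by 0.80 ± 0.08 in resident cells (adjusted p = 0.000457) and by 4.67 ± 0.10 in BMDM (adjusted p = 2.17e-10). Tyk2, a kinase of the type I receptor, was higher by 0.34 ± 0.08 in resident cells (adjusted p = 0.0217) and by 1.38 ± 0.10 in BMDM (adjusted p = 7.33e-07). The Tyk2 call in resident cells was lost in 6 of 23 alternatives, among them without LPS-treated resident replicate 2 or 3 (adjusted p up to 0.238), and the Ifngr1 call there with the 2 groups fitted alone (0.0551). Jak1 and the receptor chain Ifngr2 passed in BMDM, at 1.21 and 0.71, and not in resident cells, at 0.25 and -0.06; the Ifngr2 call was lost with equal totals and quantile normalization, and its sign changed in 1 of them. The receptor chains Ifnar1 and Ifnar2 passed in BMDM, at 1.51 ± 0.10 (adjusted p = 5.95e-07) and 1.38 ± 0.10 (adjusted p = 1.22e-06). In resident cells they differed by 0.19 ± 0.08 (adjusted p = 0.185) and 0.20 ± 0.09 (adjusted p = 0.148).

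The pathway from TLR4 to the chemokine promoters was represented by 18 genes. In resident cells 9 were higher after LPS and 1 lower, and in BMDM 15 were higher and 1 lower (median log2 change 0.30 and 1.83). The background was again 7.36% of genes higher and 5.57% lower in resident cells, and 28.3% and 29.5% in BMDM. The count of 9 fell to 5 without LPS-treated resident replicate 2, with quantile normalization, with equal library totals and with the 2 groups fitted alone. Tlr4, the LPS receptor, was the lower gene in resident cells, by -0.85 ± 0.10 (adjusted p = 0.000722), and did not pass in BMDM (-0.14 ± 0.12, adjusted p = 0.352). Irf7, which amplifies interferon production, stood at 30417 to 32108 in LPS-treated resident and 21467 to 28011 in untreated resident libraries, against 37806 and 40698 in LPS-treated BMDM and 836 and 967 in untreated BMDM. It was higher after LPS by 0.37 ± 0.11 in resident cells (adjusted p = 0.0468) and by 5.45 ± 0.13 in BMDM (adjusted p = 4.01e-10). The Irf7 call in resident cells was lost in 16 of 23 alternatives, which include leaving out any library but untreated resident replicate 2 (adjusted p up to 0.611). Irf1 was higher by 0.64 ± 0.10 in resident cells (adjusted p = 0.00352) and by 4.32 ± 0.12 in BMDM (adjusted p = 9.91e-10). Also called higher in resident cells were the kinases Ikbke (1.13) and Tbk1 (0.43), the NF-kappa B subunits Rel (0.80) and Nfkb1 (0.62), and the interferon regulatory factors Irf8 (0.33) and Irf9 (0.24). The Irf9 call was lost in 8 of 23 alternatives, among them without LPS-treated resident replicate 2 or 3, untreated resident replicate 2 or either untreated BMDM library, and the Irf8 call in 4, among them without LPS-treated resident replicate 2. In BMDM these 6 were higher by 1.60 to 3.15, from Tbk1 at 1.60 to Rel at 3.15. Stat2, which carries the type I interferon signal to the nucleus, differed by 0.30 ± 0.09 in resident cells (adjusted p = 0.0514) and was higher by 3.46 ± 0.11 in BMDM (adjusted p = 1.89e-09). The TLR4 partners Cd14 and Ly96, the adaptors Ticam1 and Ticam2 and the subunit Rela passed in BMDM, at 0.47 (Ticam2) to 1.84 (Rela), but not in resident cells. Of these BMDM calls, that of Ticam2 was lost in 6 of 23 alternatives, among them without any 1 of the 4 BMDM libraries, and its sign changed in 1; that of Cd14 was lost with quantile normalization and that of Ticam1 with equal totals. Traf3, an adaptor on the interferon branch, passed in neither. Irf3, which is activated by phosphorylation, was lower in BMDM, by -0.53 ± 0.09 (adjusted p = 0.000507).

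**Figure D4:**
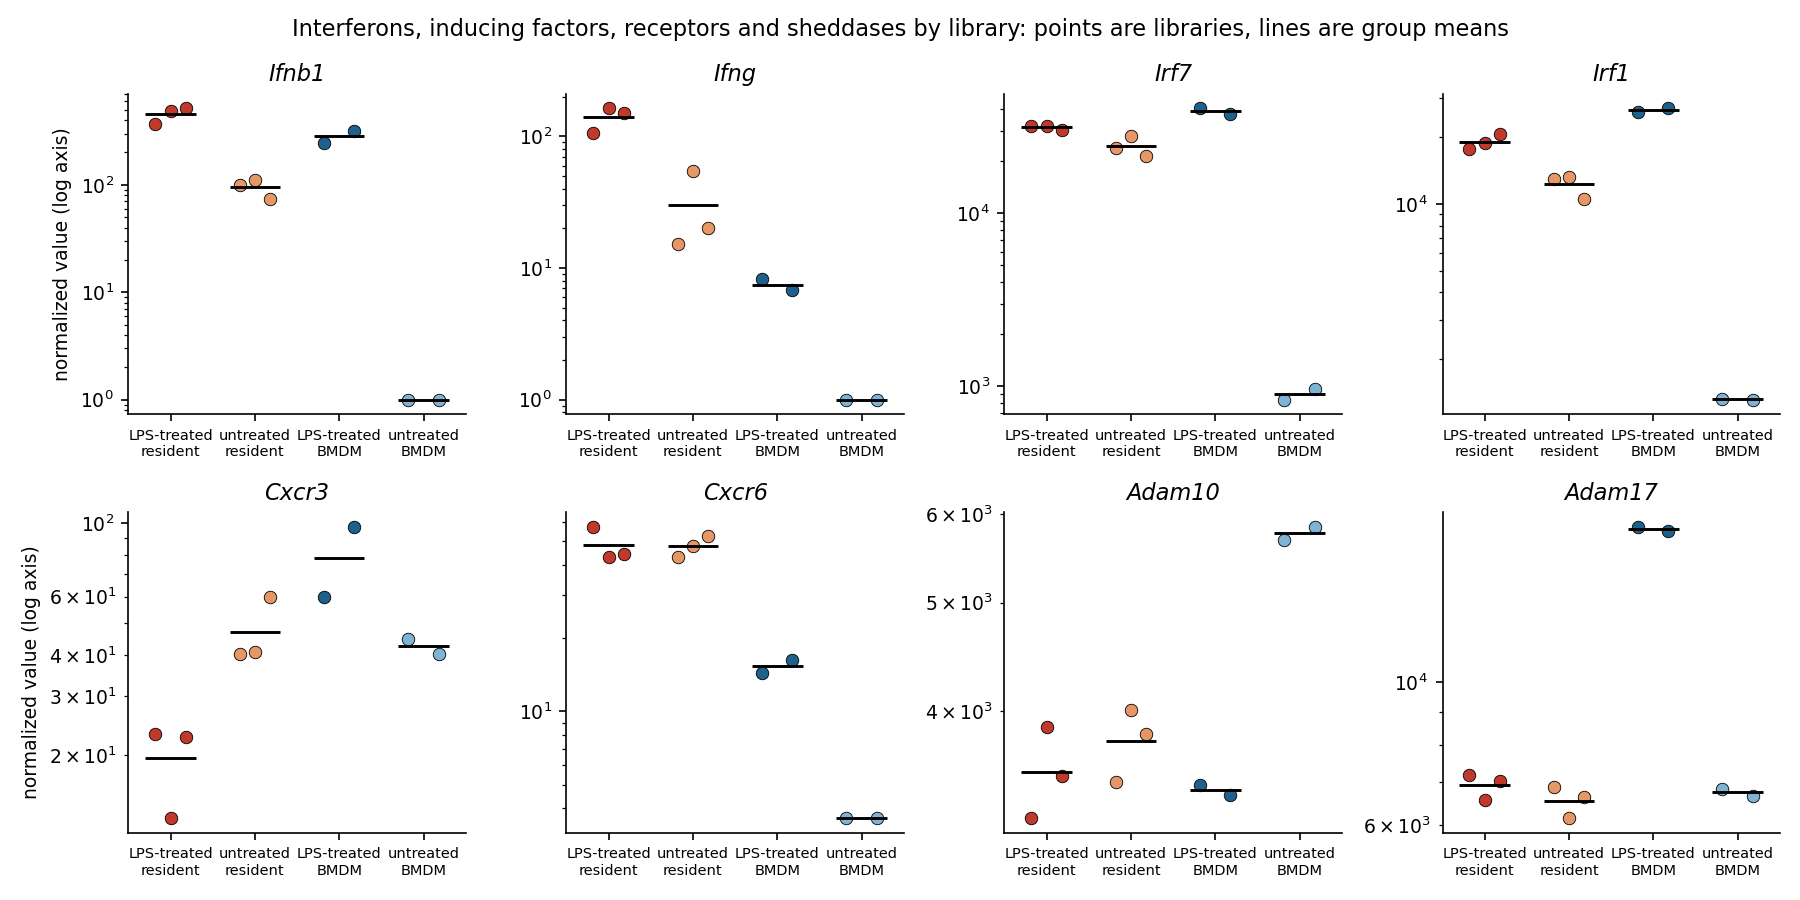
Normalized values of interferon genes (Ifnb1, Ifng), inducing factors (Irf7, Irf1), receptors (Cxcr3, Cxcr6) and sheddases (Adam10, Adam17) on log axes. Points are libraries and lines group means, in the order LPS-treated resident, untreated resident, LPS-treated BMDM and untreated BMDM. Ifnb1 is at the floor of 1 only in untreated BMDM, and Cxcr3 is lowest in LPS-treated resident libraries, at 12.9 to 23.1.

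Of 20 genes listed as type I interferon targets, 16 were higher after LPS in resident cells and 20 in BMDM, with median log2 changes of 0.55 and 6.27. The shares of all genes called higher were 7.36% and 28.3%. The count of 16 was 9 without LPS-treated resident replicate 2, 10 with quantile normalization and 6 with the 2 groups fitted alone. All 20 responses were called smaller in resident cells (median difference -5.67), against 22.8% of all genes. Without LPS all 20 were higher in resident cells than in BMDM (median 4.66), against 39.2% of all genes. With LPS 15 were lower and 1, Oasl1, was higher by 0.46 ± 0.16 (adjusted p = 0.026), against 34.5% of all genes lower and 36.7% higher. The Oasl1 call was lost without LPS-treated BMDM replicate 1 and without LPS-treated resident replicate 3, with adjusted p up to 0.175. Ifih1, an RNA sensor, was higher after LPS by 0.98 ± 0.12 in resident cells (adjusted p = 0.0011) and by 6.23 ± 0.15 in BMDM (adjusted p = 3.77e-10). Rsad2, the antiviral viperin gene and the second most alike in pattern to Cxcl9, differed by 0.69 ± 0.22 in resident cells (adjusted p = 0.0644) and was higher by 7.83 ± 0.27 in BMDM (adjusted p = 3.13e-09).

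Of 20 interferon gamma targets, 17 were higher after LPS in resident cells, against 7.36% of all genes, and 20 in BMDM, against 28.3%. Their median log2 changes were 0.66 and 6.02, and the first count was 10 with the 2 groups fitted alone. With LPS 18 were lower in resident cells than in BMDM and 1, Ciita, the master regulator of MHC class II, was higher by 0.49 ± 0.20 (adjusted p = 0.0466). Of all genes 34.5% were called lower there and 36.7% higher. The Ciita call was lost in 8 of 23 alternatives, 7 of which leave out 1 library (each BMDM library, LPS-treated resident replicates 1 and 3 and untreated resident replicate 2), with adjusted p up to 0.154. Gbp5, a guanylate binding protein gene, was higher after LPS by 1.06 ± 0.16 in resident cells (adjusted p = 0.00278) and by 9.61 ± 0.19 in BMDM (adjusted p = 1.39e-10). Nos2, which makes nitric oxide in activated macrophages, stood at 846 to 1308 in LPS-treated resident and 127 to 449 in untreated resident libraries, against 52032 and 49298 in LPS-treated BMDM and 7.29 and 1.83 in untreated BMDM. Its difference between origins under LPS was -5.57 ± 0.53 (adjusted p = 6.22e-06). In resident cells the log2 changes of the type I targets ran from 0.09 to 0.98 and those of the interferon gamma targets from 0.057 to 1.975. The changes of Cxcl9, Cxcl10 and Cxcl11 there lie inside both ranges. In BMDM the type I targets ran from 2.27 to 7.83, below all 3 chemokine genes, and the interferon gamma targets from 1.65 to 13.35, around them.

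**Figure D5:**
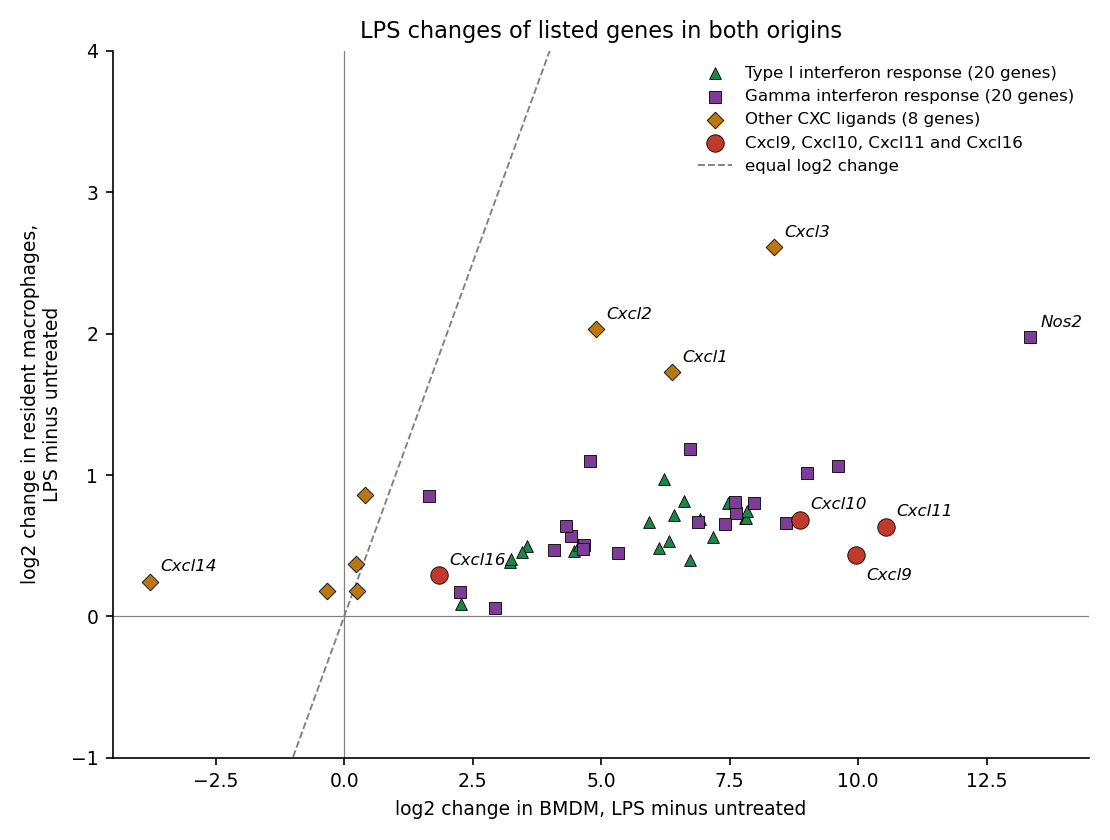
Log2 change after LPS in BMDM (x axis) against that in resident macrophages (y axis) for 4 gene lists, 1 symbol per gene. The dashed line marks equal changes and the axes have different scales. Cxcl9, Cxcl10 and Cxcl11 lie at 8.87 to 10.54 in BMDM and 0.44 to 0.68 in resident cells, while Cxcl1, Cxcl2 and Cxcl3 lie at 1.73 to 2.61 in resident cells.

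Of 11 negative regulators of the same pathways, 7 were called higher after LPS in resident cells and 4 did not pass, against 7.36% of all genes called higher. In BMDM 10 were higher and 1, Irf2bp2, lower, against 28.3% and 29.5% of all genes. The count of 7 was 3 with the 2 resident groups fitted alone. Tnfaip3, an inhibitor of NF-kappa B signalling, was higher by 1.47 ± 0.15 in resident cells (adjusted p = 0.000471) and by 4.89 ± 0.19 in BMDM (adjusted p = 7.8e-09). Socs3, an inhibitor of cytokine signalling, was higher by 1.30 ± 0.21 in resident cells (adjusted p = 0.0041) and by 8.10 ± 0.26 in BMDM (adjusted p = 1.96e-09). Socs1, which blocks Janus kinases, stood at 3254 to 3570 in LPS-treated resident and 2059 to 2407 in untreated resident libraries, against 9976 and 11778 in LPS-treated BMDM and 62.1 and 63.8 in untreated BMDM. It was higher by 0.66 ± 0.09 in resident cells (adjusted p = 0.00154) and by 7.41 ± 0.11 in BMDM (adjusted p = 6.35e-11).

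Of 11 other CXC ligands listed, 8 are in the table. After LPS 3 were higher in resident cells, against 7.36% of all genes, and 3 in BMDM, against 28.3%. In BMDM 1, Cxcl14, was lower by -3.79 ± 0.34 (adjusted p = 5.39e-06), against 29.5% of all genes called lower. The 3 in resident cells were the neutrophil attractants Cxcl3 (2.61 ± 0.26, adjusted p = 0.000321), Cxcl2 (2.03 ± 0.23, adjusted p = 0.000663) and Cxcl1 (1.73 ± 0.14, adjusted p = 0.000128). Cxcl2 stood at 51941, 33140 and 41739 in LPS-treated resident libraries, against 15011, 9078 and 7751 in untreated resident libraries, so its groups are well apart. In BMDM the same 3 were higher by 4.90 to 8.37. Whether their changes in resident cells differ from that of Cxcl10 was not tested. Cxcl12, made by marrow stroma, stood at 795 to 2001 in LPS-treated resident and 711 to 1298 in untreated resident libraries, against 2.06 and 4.06 in LPS-treated BMDM and 1 and 4.57 in untreated BMDM.

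The genes whose pattern was most like each chemokine were taken by Pearson's r of log2 values over the 10 libraries, as a description in which the 4 groups set most of the spread. For Cxcl9 they were Enpp4, Rsad2, Irf7, Ifit3b and Ifit3 (r = 0.9976 to 0.9992), and for Cxcl10 they included Ifit3, Gbp6, Ccnd2 and Zbp1 (0.9986 to 0.9992). For Cxcl11 they were Irf7, Klrk1, Enpp4, Ifit3b and Hivep2 (0.9958 to 0.9982). Cxcl16 kept other company, namely Fam102b, Ghitm, Ywhae, Gnb1 and Chic2 (0.9919 to 0.9975). Its r with the CXCR3 ligands was 0.939 to 0.953, while theirs with one another was 0.989 to 0.997. Fam102b stood at 17593, 12311 and 12670 in LPS-treated resident and 16058, 8321 and 6186 in untreated resident libraries, against 17254 and 17105 in LPS-treated BMDM and 1995 and 1958 in untreated BMDM, so like Cxcl16 it is highest in replicate 1 of both resident groups.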

How the data were processed

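RNA was sequenced from 10 libraries in 4 groups taken from the labels. HISAT 0.1.7 and the mm10 build are named in the submitters' processing notes. Annotation, counting program and strand setting: not given in the sources used here. The deposited table holds signal values, which the authors made from read counts by 1 factor per library with a floor of 1. This was checked on the table: every value above the floor and under 1000 reads is a whole multiple of its library's step within 0.02. The 4 genes and all lists were chosen with earlier results of these data known.

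Values were analysed as log2(value + 1) with limma 3.58.1 in R 4.3.3, with a variance trend, 4 group means over all 10 libraries and 6 residual degrees of freedom. The 13755 genes that reached 10 in 2 libraries or more entered the fit, with Benjamini-Hochberg adjustment over all of them in each of 5 contrasts. A log2 change understates the fold of low genes. The fit was also run on simulated data with known changes. Those data had the same spread in all groups, so they do not test calls where the spreads differ between groups. Named genes are the 4 chemokine genes, members of 3 lists (receptors and proteases, interferon and receptor genes, inducing pathway), up to 2 called rises and falls of each other list, and the 5 genes most alike by correlation. Cell markers, Y-linked and neighbouring genes, Cxcl1, Socs1 in resident cells and the library values of listed genes were added after their values were seen, and 1 listed gene is counted in its list but not reported here by name. Counting intervals are exact Poisson intervals at 95%. Positions come from GENCODE (GRCm38) and promoter sequences from RefSeq (GRCm38.p6). Figures were drawn with matplotlib 3.10.9 in Python 3.11.15. The alternatives are given in the closing section.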

Additional observations from a re-analysis of the deposited data

Results flagged for a closer look

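The log2 response to LPS differed between resident macrophages and BMDM for all 4 genes, by a test of the difference itself in limma (resident minus BMDM). The difference was -9.527 for Cxcl9, -8.19 for Cxcl10, -9.902 for Cxcl11 and -1.545 for Cxcl16. Of all genes tested, 22.8% were called in this direction. All 3 LPS-treated resident libraries lay below both LPS-treated BMDM libraries for Cxcl9, Cxcl10 and Cxcl11, as for 40.2% of all genes. All 3 untreated resident libraries lay above both untreated BMDM libraries for all 4 genes, as for 44.4% of all genes. Each difference kept its sign and its call in 22 alternatives, with ranges of -9.79 to -8.208 for Cxcl9, -8.361 to -7.702 for Cxcl10, -10.501 to -8.244 for Cxcl11 and -1.737 to -0.824 for Cxcl16.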

How the results depend on the processing

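Of 456 values of the 4 genes under alternative settings, 447 kept their direction and their side of the threshold. The exceptions lie in 2 comparisons, and their cause was not tested. For LPS against untreated resident cells, Cxcl10 lost its call at 0.512 (adjusted p 0.0671) with quantile normalization, and at 0.683 (0.113) with the 2 groups fitted alone, while over the libraries left out in turn it ran from 0.511 to 0.81 and lost its call without LPS-treated resident replicate 2. Cxcl16 gained a call at 0.373 (0.0298) without both libraries with Y-linked transcripts, and over the libraries left out in turn it ran from 0.1 to 0.511. For LPS-treated resident cells against LPS-treated BMDM, Cxcl11 gained a call at -0.393 (0.0304) with the 2 groups fitted alone. Cxcl16 there changed sign without a call at 0.204 with quantile normalization and 0.167 with equal library totals, and was -0.296 (0.0224) without both libraries with Y-linked transcripts. Equal totals shift the median of all genes by -0.12 to -0.60 for LPS in resident cells and in BMDM, and by 0.32 between LPS-treated origins; relative to the median of all genes, the Cxcl16 difference between LPS-treated origins was -0.19 with equal totals, 0.29 with quantile normalization and -0.19 with the deposited scaling.

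Over all genes, 1779 were called for LPS in resident cells, of which 56.9% were higher. That number was 645 with the 2 groups fitted alone and 2893 with both libraries that hold Y-linked transcripts left out, and ran from 970 to 2290 over the libraries left out in turn, with 970 without LPS-treated resident replicate 2 and 1185 without untreated resident replicate 3. With equal totals 27.1% of called genes were higher for LPS in resident cells. The share was 21.6% against 49.0% for LPS in BMDM. It was 68.3% with equal totals against 51.5% between LPS-treated origins, and 75.4% against 45.5% (56.9% with quantile normalization) for the difference of responses. Between untreated origins it was 41.5% with quantile normalization against 54.6%. For the 7 other lists, 1518 of 1596 counts stayed within 1.5 times. Recovered reads were tested with voom, chosen after seeing the data, as was leaving out the libraries with Y-linked transcripts; 2 planned tests for read counts were not run, since the deposited values are not counts. No paired analysis was made, because the titles number the 10 libraries straight through and share no replicate number between groups, so the libraries were treated as unpaired. Y-linked transcripts were in replicate 1 of both resident groups. Summed platelet markers over replicates 1, 2 and 3 were 17033, 44954 and 28170 with LPS and 12761, 41524 and 28838 without. Whether these libraries form pairs was not tested, and p-values from a paired fit may differ. Depth limits Cxcl9 and Cxcl11 in untreated BMDM, at 2 to 6 reads a library.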
